A study of Mus musculus with 20 samples.

Results

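The comparison was between kidneys of XX mice that had lost *Pkd2* as juveniles and kidneys of XX controls. Its members were chosen by their litter group label, which marks the females at P125, and they are 10 of the 20 mice of the series, 5 mutants and 5 controls, with 1 kidney RNA library each. Polycystin-2, the product of *Pkd2*, is a cation channel of the TRP family that works with polycystin-1 in the primary cilium and the endoplasmic reticulum of tubule cells. When both copies of either gene are lost in an epithelial cell of the nephron, the tubule widens into a fluid-filled cyst, and loss of *PKD1* or *PKD2* is the cause of most autosomal dominant polycystic kidney disease. Cystic kidneys are known for dividing cyst epithelium, for macrophages and matrix around the cysts, and for loss of the transport programme of the tubule.

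Mutants had the genotype Pkd2fl/fl; Pax8; Tet-O-Cre + in the labels. Tubule cells of every segment make the activator rtTA, under control of *Pax8* sequences, and given DOX (doxycycline) rtTA turns on the Cre transgene. The label of the other group is Control, and in the methods these were littermates with floxed *Pkd2* that lacked either the activator or the Cre transgene. Both groups were inbred C57BL/6, both had DOX at 50 mg per kg once a day from P27 to P29, and all kidneys were taken at P125. There were 3 litters (A, B and C). Litters A and C gave 1 female mutant and 1 female control each (FM1 and FC1, FM5 and FC5), and litter B gave 3 of each (FM2, FM3, FM4 and FC2, FC3, FC4). Each litter has its own prefix in the library titles, so a litter cannot be told apart from anything else that the prefix may mark.

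Total counts in the 10 libraries ran from 11307741 in FM4 to 18419308 in FM1, with a median of 16127548. One library stood apart, and each fit below is given with and without it. The library of FM4 had counts for 14850 genes, against 16848 to 17724 in the other 9 females, and only 76 genes with a single count, against 708 to 827. A male control of the series with 12726655 counts had 16776 genes and 847 with a single count. The gap was at low levels. Of 1829 genes with a control mean from 0.1 to 0.5 CPM (counts scaled to library size, with library sizes set by the TMM method), 70.0% had 0 counts in FM4 and at most 13.7% in any control. Of 892 genes between 1 and 2 CPM, 14.6% had 0 counts in FM4 and at most 0.224% in another mutant, and from 5 CPM upward no gene was at 0 in any of the 10. A 0 in FM4 for a gene below about 5 CPM is therefore a weak measurement, and FM4 was also the mutant with the lowest kidney weight, so library and mouse cannot be told apart in its values.

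**Figure D1:**
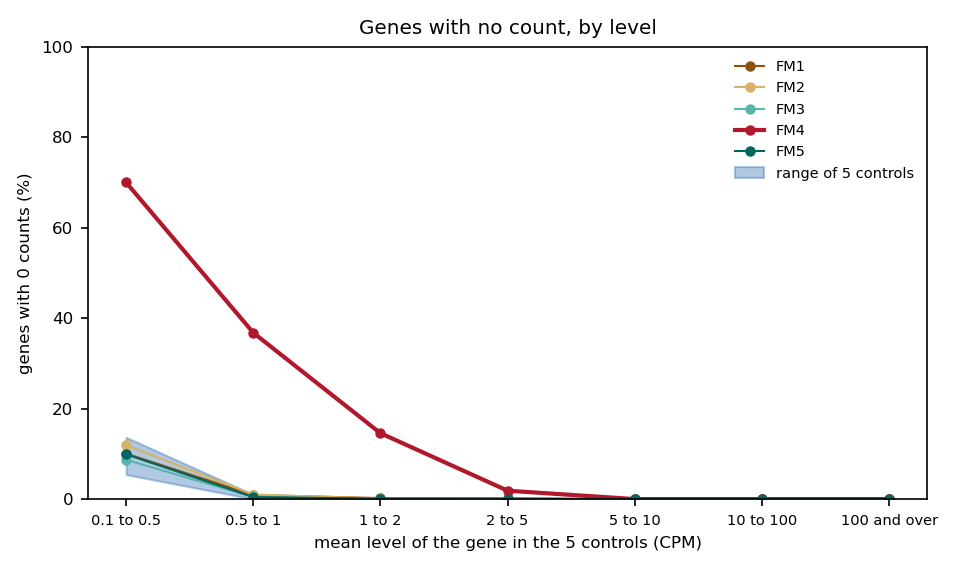
Share of genes with 0 counts (percent, vertical axis) against the mean level of the gene in the 5 female controls (CPM, horizontal axis), with a line for each of the 5 female mutants and a band for the range of the 5 controls. FM4 had 0 counts for 70.0% of genes from 0.1 to 0.5 CPM and for 36.8% from 0.5 to 1 CPM, and joined the other mice from 5 CPM upward.

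The libraries matched their labels for tissue and sex. *Xist*, the RNA that silences 1 X chromosome, had at least 6085 counts in each female and at most 6 in any male, and *Ddx3y*, *Uty*, *Kdm5d* and *Eif2s3y* of the Y chromosome had 0 counts in all 10 females. Kidney markers were abundant in all 10. The 34 genes of the proximal tubule transport and brush border list summed to 16321, 17103, 15294, 25036 and 23007 CPM in FM1 to FM5 and to 23458, 23288, 21146, 22430.4 and 23743 CPM in FC1 to FC5, with *Slc34a1*, the sodium phosphate cotransporter, as the most abundant. The gene with the most counts was *Gpx3*, a selenoprotein that the proximal tubule secretes, in 8 of the 10 females, and the ribosomal RNA precursor *Rn45s* in FM2 and FM3.

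The weight of 1 kidney as a percentage of body weight (KBW) was larger in every mutant than in any control. KBW was 1.38%, 1.24%, 1.46%, 0.836% and 1.00% in FM1 to FM5 and 0.645%, 0.605%, 0.599%, 0.555% and 0.672% in FC1 to FC5. The means were 1.18% ± 0.261 (SD, n = 5) and 0.615% ± 0.0448 (SD, n = 5), a difference of 0.568 percentage points. A two-sided exact permutation test with no litter term gave p = 0.00794, which no split of 5 and 5 mice can go below. Splits kept within litters are fewer and could not give a p under 0.01. The difference was 0.733 percentage points in litter A, 0.592 in litter B and 0.328 in litter C. Body weight itself differed by 1.26 g, with p = 0.294 in the same exact permutation test, and the heaviest mouse was FM1 at 25.13 g.

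*Pkd2*, the targeted gene, lies on chromosome 5 of GRCm38 (chr5:104453982-104505819). It stood at 159, 141, 104, 189.6 and 170.4 CPM in FM1 to FM5 and at 202, 319, 305, 227 and 289 CPM in FC1 to FC5. All 5 mutants lay below all 5 controls, and the gap between the groups was small, with FM4 the highest mutant and FC1 the lowest control. The log2 fold change was -0.91 ± 0.18 (SE, adjusted p = 0.00952) without FM4 and -0.80 ± 0.18 (adjusted p = 0.0274) with it, so that *Pkd2* passed the threshold used throughout, an adjusted p under 0.01, without FM4 and not with it in the edgeR fits. In all 10 females DESeq2 (adjusted p = 0.000405) and voom (adjusted p = 0.00236) called it. The 9-female call was lost when FC2, FC3, FC4, FC5, FM2, FM3 or FM5 was also left out, at adjusted p from 0.0182 to 0.0259 and log2 fold changes from -0.97 to -0.74. Leaving out FC5 or FM5 takes the only pair of litter C out of the fitted comparison. By litter (A, B and C), the log2 difference was -0.34, -1.0 and -0.76, and -1.21 in B without FM4. Counts are per gene, so reads from exons outside the floxed ones and from cells without Cre are part of these values, and the extent of recombination was not measured here. *Pkd1*, which codes for the partner polycystin-1, overlapped between the groups at 28.0, 41.3, 86.6, 51.2 and 55.4 CPM in FM1 to FM5 and 59.3, 48.3, 62.0, 46.4 and 34.3 CPM in FC1 to FC5, with a log2 fold change of 0.08 ± 0.29 (SE, adjusted p = 0.892) without FM4 and 0.05 ± 0.26 (adjusted p = 0.956) with it. Of the 27 genes on the list of cystic disease genes, which includes *Pkhd1* and the ciliary gene *Ift88*, all were tested, *Pkd2* was the 1 called without FM4 and none was called with it by edgeR, and the median log2 fold change was -0.00 without FM4 and 0.01 with it.

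**Figure D2:**
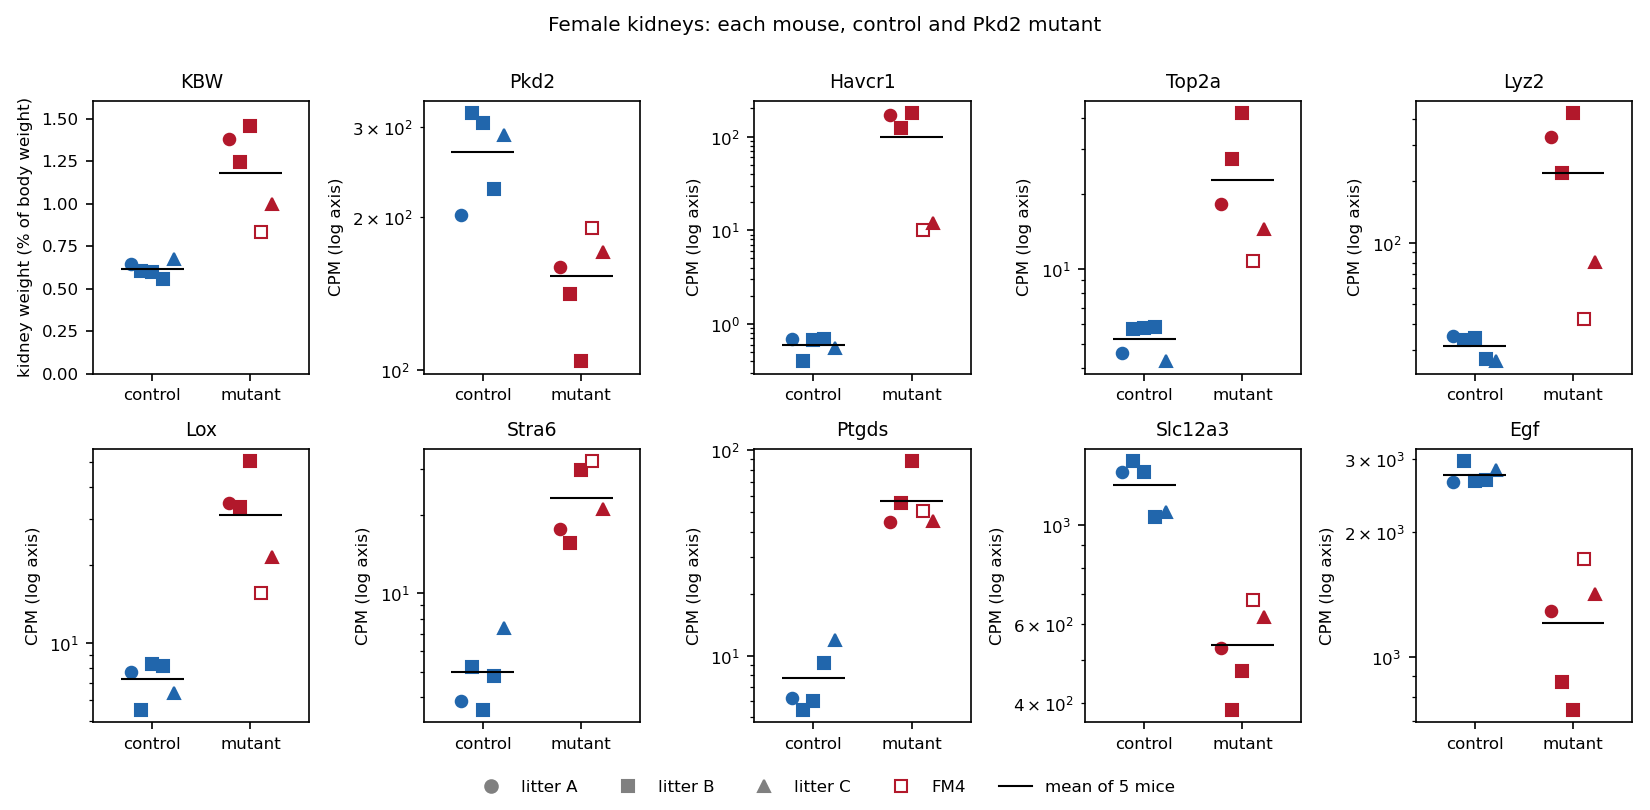
KBW (percent of body weight, linear axis from 0) and the level of 9 genes (CPM, log axes) in each of the 5 female controls and 5 female mutants, with symbols for litters A, B and C, an open symbol for FM4 and a line at the mean of 5 mice. Controls and mutants were apart for KBW and for each of the 9 genes shown, and FM4 was the mutant nearest to the controls for KBW, *Pkd2*, *Havcr1*, *Top2a*, *Lyz2*, *Lox*, *Slc12a3* and *Egf*, but the highest mutant for *Stra6*.

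Most of the genes called were higher in mutants. With litter as a covariate, 93 of 15194 genes tested (0.612%) were called differentially expressed in the 10 females, 67 higher in mutants (0.441%) and 26 lower (0.171%). Without FM4 the count was 906 of 15140 (5.98%), with 729 higher (4.82%) and 177 lower (1.17%), and it included all 93. The groups did not overlap for 88 of the 93 and for 743 of the 906, so a call alone does not mean that the groups were apart. These calls and all calls below are those of edgeR unless another tool is named. In the 10 females DESeq2 called 955 genes and voom 1278, so a gene or list with no call with FM4 here can hold calls by those tools. Sizes of change here are log2 fold changes, mutants over controls, ± SE. This SE was worked back from the edgeR test, as the size of the log2 fold change over the square root of the F statistic. It therefore adds nothing to the fold change and its p. A rise of at least 2-fold was seen for 580 of the 729 and 58 of the 67, and a fall of at least 2-fold for 44 of the 177 and 11 of the 26. The median log2 fold change over all genes tested was -0.00 in both fits, and the medians of gene lists below stand beside it, as their counts without FM4 stand beside 4.82% higher and 1.17% lower. The median also varied with level. Against the control mean it was -0.10, -0.11, -0.22, -0.01 and -0.05 in FM1 to FM5 over genes at 100 CPM and over. From 0.5 to 1 CPM it was 0.24, 0.22, 0.39, -0.45 and 0.21. The proximal tubule, fatty acid oxidation, TCA cycle, glycolysis and antioxidant lists had median control levels of 372, 254, 441, 461 and 219 CPM. List medians were not compared with genes of like level. A call lost with FM4 need not mean a smaller change, so the log2 fold change with FM4 is given too, except for genes described by their counts. Of the 43 lists, 16 had a called member with FM4 and 31 without it. The 10-female count moved with the mice left out. Litters A and C have 1 female mutant and 1 female control each. With litter as a covariate, leaving out either mouse of such a pair takes both out of the comparison of genotypes. Leaving out FC1 or FM1 of litter A brought the count to 5 genes either way, and leaving out FM5 or FC5 of litter C to 29 or 30. In litter B, leaving out FC2, FC3, FC4 or FM2 brought it to 3, 7, 4 or 20, and the cause was not tested. The 9-female count fell to 343, 373, 370, 317, 291 and 527 without FC1, FC2, FC3, FC4, FM1 and FM3.

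Of 29 markers of injured tubule cells, 19 were higher without FM4 and 3 with it. *Havcr1*, which codes for KIM-1, a phosphatidylserine receptor that damaged proximal tubule cells put on their surface, stood at 172, 123, 178, 10.0 and 12.0 CPM in FM1 to FM5 and at 0.69, 0.398, 0.68, 0.683 and 0.554 CPM in FC1 to FC5. All 5 mutants were far above all controls, with FM4 and FM5 well below the other mutants, and the log2 fold change was 7.66 ± 0.36 (SE, adjusted p = 2.53e-05) without FM4 and 7.28 ± 0.83 (adjusted p = 0.00302) with it. By litter, the log2 difference of *Havcr1* was 7.72, 6.44 and 4.16 in A, B and C, and 7.73 in B without FM4. *Cd44*, a receptor for hyaluronan, stood at 38.4, 22.4, 47.5, 7.71 and 10.3 CPM in FM1 to FM5 and at 5.1, 3.13, 5.2, 3.79 and 2.37 CPM in FC1 to FC5. It also separated the groups, by 2.89 ± 0.26 (SE, adjusted p = 0.000447) without FM4 and 2.64 ± 0.41 (adjusted p = 0.00863) with it on the log2 scale. *Vcam1*, an adhesion molecule also found on maladaptive tubule cells, stood at 138, 88.2, 144, 27.6 and 37.5 CPM in FM1 to FM5 and at 16.6, 18.7, 17.0, 16.3 and 14.3 CPM in FC1 to FC5. It rose without FM4 by 2.53 ± 0.24 (adjusted p = 0.000517; with FM4 2.29 ± 0.38, adjusted p = 0.0114). *Sox9*, a transcription factor of regenerating tubule, rose by 2.15 ± 0.25 (adjusted p = 0.00106; with FM4 1.87 ± 0.48, adjusted p = 0.0468) without FM4, while the level in FM4, 0.807 CPM, lay among the controls at 0.237 to 1.79 CPM. None of the 29, the list of tubule injury and failed repair, was called lower, and the median log2 fold change was 1.32 without FM4 and 1.15 with it, where *Havcr1*, *Cd44* and *Il34* were the 3 called. In whole kidney RNA, more cells of a type and more RNA per cell cannot be told apart, nor can fewer cells and less RNA per cell, and this holds for every gene group described here.

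Of 45 mitosis genes 36 were higher without FM4 and 8 with it, and of 33 DNA replication genes 10 and 1. *Top2a*, the topoisomerase that untangles replicated chromosomes, stood at 18.2, 27.6, 41.9, 10.8 and 14.4 CPM in FM1 to FM5 and at 4.62, 5.75, 5.81, 5.83 and 4.27 CPM in FC1 to FC5. Every mutant exceeded every control, and the log2 fold change was 2.28 ± 0.18 (SE, adjusted p = 0.00033) without FM4 and 2.08 ± 0.30 (adjusted p = 0.00705) with it. *Cenpf*, a kinetochore protein, stood at 7.93, 13.5, 21.8, 9.68 and 6.71 CPM in FM1 to FM5 and at 1.66, 2.73, 3.28, 3.79 and 1.74 CPM in FC1 to FC5, a rise of 2.31 ± 0.20 (SE, adjusted p = 0.000344) without FM4 and 2.17 ± 0.24 (adjusted p = 0.00249) with it on the log2 scale. *Ccna2* (cyclin A2) rose by 1.95 ± 0.18 (adjusted p = 0.000444) without FM4 and 1.78 ± 0.27 (adjusted p = 0.00775) with it. *Tpx2*, which nucleates spindle microtubules, rose by 2.18 ± 0.20 (adjusted p = 0.000493; with FM4 1.93 ± 0.36, adjusted p = 0.0166) without FM4, and *Psrc1*, a protein of the spindle, rose by 2.78 ± 0.29 (adjusted p = 0.000668) and 2.63 ± 0.35 (adjusted p = 0.00527). No mitosis gene was called lower, and the median was 1.92 without FM4 and 1.78 with it. Mouse by mouse, the median over the list of the log2 difference from the control mean was 1.4, 2.08, 2.34, 0.95 and 0.88 in FM1 to FM5, so FM4 and FM5 were the lowest mutants. The DNA replication list had a median of 0.67 without FM4 and 0.58 with it, where *Rrm1* was the 1 called. *Uhrf1*, which carries DNA methylation through replication, rose by 2.06 ± 0.24 (adjusted p = 0.00106; with FM4 1.83 ± 0.35, adjusted p = 0.0187) without FM4, the helicase subunit *Mcm3* by 1.48 ± 0.19 (adjusted p = 0.00148; with FM4 1.35 ± 0.23, adjusted p = 0.0118), thymidine kinase *Tk1* by 1.1 ± 0.13 (adjusted p = 0.00123; with FM4 1.0 ± 0.18, adjusted p = 0.0143), and *Rrm2*, a subunit of ribonucleotide reductase, by 1.3 ± 0.19 (adjusted p = 0.00266; with FM4 1.11 ± 0.30, adjusted p = 0.0584).

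Promoters of the mitosis list were searched for the letters of elements known to time transcription to G2 and M phase, TTTGAA (the core of the cell cycle genes homology region, CHR) and CCAAT, on both strands from 250 bases before to 50 after the start, in RefSeq promoters on GRCm38.p6. Of the 45 genes 39 matched a promoter, and TTTGAA was in 29 of them (74.4%), against 18.1% of 27025 promoters, 1 for each gene. CCAAT was in 29 (74.4%), against 37.9% of all, and both were in 24 (61.5%), against 7.12%. These shares describe letters, and no binding was measured. The last 150 bases before the start are shown for the 4 called mitosis genes with the smallest p in the 9-female fit that held both there, read 5′ to 3′ on the strand of the gene, with the letters of both motifs in capitals on whichever strand they lie, to show how close to the start they lie. The windows are chr11:99024190-99024339 on the minus strand for *Top2a*, chr7:135716380-135716529 on the minus strand for *Mki67*, chr10:69352913-69353062 on the minus strand for *Cdk1* and chr19:37376232-37376381 on the plus strand for *Kif11*.
Top2a: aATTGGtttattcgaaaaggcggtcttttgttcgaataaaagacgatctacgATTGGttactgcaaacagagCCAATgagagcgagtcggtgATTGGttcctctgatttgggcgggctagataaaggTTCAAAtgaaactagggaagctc
Mki67: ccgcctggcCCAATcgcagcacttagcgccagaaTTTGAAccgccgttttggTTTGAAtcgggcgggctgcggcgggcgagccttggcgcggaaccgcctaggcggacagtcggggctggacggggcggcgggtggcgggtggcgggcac
Cdk1: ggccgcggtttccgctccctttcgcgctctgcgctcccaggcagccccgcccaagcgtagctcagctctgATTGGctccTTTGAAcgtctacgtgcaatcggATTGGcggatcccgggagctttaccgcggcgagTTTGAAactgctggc
Kif11: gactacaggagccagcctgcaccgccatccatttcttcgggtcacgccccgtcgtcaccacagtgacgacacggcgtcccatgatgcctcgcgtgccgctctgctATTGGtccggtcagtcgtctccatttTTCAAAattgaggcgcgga
The CHR letters nearest the start began 23 bases before it in *Top2a*, 98 in *Mki67*, 15 in *Cdk1* and 19 in *Kif11*.

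Of the inhibitors of the cycle and targets of p53, 7 of 20 tested were higher without FM4 and 1 of 21 with it. *Eda2r*, a TNF receptor family member and p53 target, stood at 4.55, 4.76, 9.99, 5.92 and 2.78 CPM in FM1 to FM5 and at 1.1, 0.968, 1.48, 1.24 and 0.87 CPM in FC1 to FC5. The groups were apart, and the log2 fold change was 2.3 ± 0.30 (SE, adjusted p = 0.00145) without FM4 and 2.25 ± 0.30 (adjusted p = 0.00559) with it. *Cdkn1a* (p21) rose by 1.63 ± 0.25 (adjusted p = 0.00294; with FM4 1.5 ± 0.27, adjusted p = 0.0143) without FM4, with FM5 at 16.0 CPM inside the control range of 10.3 to 17.2 CPM. *Plk2*, a kinase induced by p53, rose by 1.17 ± 0.16 (adjusted p = 0.00211; with FM4 1.03 ± 0.21, adjusted p = 0.0226) and the RNA-binding protein *Zmat3* by 0.71 ± 0.11 (adjusted p = 0.00334; with FM4 0.65 ± 0.12, adjusted p = 0.0161) without FM4. The median of the list was 0.62 without FM4 and 0.65 with it, where *Eda2r* was the 1 called. Among immediate early genes, *Myc* stood at 22.3, 21.8, 22.1, 11.4 and 10.6 CPM in FM1 to FM5 and at 7.59, 4.9, 6.5, 4.9 and 6.64 CPM in FC1 to FC5, a rise of 1.63 ± 0.21 (SE, adjusted p = 0.00144) without FM4 and 1.51 ± 0.24 (adjusted p = 0.00884) with it, and *Fosl2* rose by 1.45 ± 0.22 (adjusted p = 0.00316; with FM4 1.31 ± 0.26, adjusted p = 0.0197) without FM4. These were the 2 of 14 called without FM4 (median 1.02), and *Myc* was the 1 called with it (median 0.89). *Atf3*, a stress-induced transcription factor, rose by 2.7 ± 0.29 (adjusted p = 0.000801) without FM4 and 2.53 ± 0.34 (adjusted p = 0.00621) with it, as the only call among 15 genes of the unfolded protein and integrated stress response (6.67% higher without FM4, beside 4.82% of all genes tested, median 0.20 without FM4 and 0.15 with it).

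Several chemokines that draw neutrophils and monocytes were near absent in controls. *Cxcl5* had 87, 28, 87, 21 and 10 counts in FM1 to FM5 and 0, 0, 1, 0 and 0 in FC1 to FC5, with an adjusted p of 0.000524 without FM4 and 0.00214 with it. *Cxcl2* had 52, 52, 59 and 19 counts in FM1, FM2, FM3 and FM5 and 0 in FM4 and in all 5 controls. Without FM4 its mean was at least 11.1-fold higher than the level of 3 counts in the smallest control library (adjusted p = 0.00131), and with FM4 at least 8.86-fold (adjusted p = 0.0413, not called). *Ccl2*, the monocyte chemoattractant, stood at 13.8, 9.59, 9.33, 1.26 and 2.78 CPM in FM1 to FM5 and at 1.03, 1.14, 0.99, 0.434 and 0.554 CPM in FC1 to FC5, with all mutants above all controls, and rose by 3.34 ± 0.29 (adjusted p = 0.000344; with FM4 3.03 ± 0.53, adjusted p = 0.0124) without FM4. The neutrophil chemokine *Cxcl1* rose by 3.24 ± 0.28 (adjusted p = 0.000344; with FM4 2.93 ± 0.52, adjusted p = 0.0134) and *Ccl9* by 3.31 ± 0.32 (adjusted p = 0.000586; with FM4 2.97 ± 0.70, adjusted p = 0.034) without FM4, and *Ccl7* had 119, 34, 50, 5 and 8 counts in FM1 to FM5 against at most 3 in a control (adjusted p = 0.00119 without FM4 and 0.0124 with it). The antagonist of the interleukin 1 receptor, *Il1rn*, stood at 10.2, 3.94, 8.05, 2.69 and 1.15 CPM in FM1 to FM5 and at 0.069, 0.0569, 0.371, 0.0621 and 0.0791 CPM in FC1 to FC5, a rise of 5.4 ± 0.52 (SE, adjusted p = 0.000586) without FM4 and 5.17 ± 0.61 (adjusted p = 0.00329) with it. Of the 30 chemokines and receptors tested, 19 were higher without FM4 and none lower (median 1.6, also with *Cxcl2* at its bound), and with FM4 these were *Cxcl5* and *Cxcl10* (median 1.42). FM4 had 0 counts for 6 of the 30, and the other 9 mice for at most 4.

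Nearly all markers of macrophages on the list were higher without FM4. *Lyz2*, the lysozyme of myeloid cells, stood at 327, 219, 429, 42.6 and 80.1 CPM in FM1 to FM5 and at 35.1, 33.6, 34.4, 27.1 and 26.3 CPM in FC1 to FC5, and all 5 mutants lay above the controls. The log2 fold change was 2.96 ± 0.30 (SE, adjusted p = 0.000643) without FM4 and 2.7 ± 0.49 (adjusted p = 0.0152) with it. *Mpeg1*, the pore-forming protein perforin-2, rose by 1.68 ± 0.19 (adjusted p = 0.000996; with FM4 1.49 ± 0.29, adjusted p = 0.0187), the Fc receptor *Fcgr1* by 2.15 ± 0.24 (adjusted p = 0.000885; with FM4 1.92 ± 0.37, adjusted p = 0.0185) and *Ms4a7* by 2.31 ± 0.27 (adjusted p = 0.00116; with FM4 2.06 ± 0.39, adjusted p = 0.0178) without FM4. Of 25 macrophage and myeloid markers, which include *Adgre1*, *Cd68*, *C1qa* and *Trem2*, 24 were higher without FM4 (median 1.84) and none was called with it by edgeR (median 1.6). The summed level of the 25 was 1370.5, 884, 1686, 274 and 417 CPM in FM1 to FM5 and 305, 263, 292, 239.6 and 221 CPM in FC1 to FC5. FM4 lay inside the control range, and FM1, FM2, FM3 and FM5 lay above it. Other myeloid genes that rose without FM4 were *Fcrls*, a scavenger receptor, by 6.1 ± 0.48 (adjusted p = 0.00033; with FM4 5.68 ± 1.1, adjusted p = 0.0187), and *Clec4n*, which codes for dectin-2, by 5.41 ± 0.62 (adjusted p = 0.000978; with FM4 4.99 ± 1.1, adjusted p = 0.0282), each with 0 counts in FM4. *Lyz1* had 43, 41, 91, 0 and 22 counts in FM1 to FM5 and at most 3 in a control (adjusted p = 0.000594 without FM4 and 0.029 with it). It is a near copy of *Lyz2*, so reads may be shared between them.

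Of 9 genes of class II antigen presentation tested, 8 were higher without FM4 and 1 with it. *H2-DMb2*, a subunit of the exchange factor that loads peptide onto class II molecules, stood at 4.98, 5.4, 6.27, 1.97 and 3.57 CPM in FM1 to FM5 and at 0.621, 0.626, 0.68, 1.06 and 0.633 CPM in FC1 to FC5, a rise of 2.83 ± 0.24 (SE, adjusted p = 0.000344) without FM4 and 2.61 ± 0.37 (adjusted p = 0.00701) with it. The class II chains *H2-Ab1*, *H2-Eb1* and *H2-Aa* rose without FM4 by 1.32 ± 0.18 (adjusted p = 0.00207; with FM4 1.15 ± 0.26, adjusted p = 0.0293), 1.33 ± 0.19 (adjusted p = 0.00209; with FM4 1.18 ± 0.24, adjusted p = 0.0231) and 1.37 ± 0.20 (adjusted p = 0.00228; with FM4 1.18 ± 0.28, adjusted p = 0.038). The median of the 9 was 1.32 without FM4 and 1.15 with it. Lymphocyte markers were at low level, apart from *Jchain*, the joining chain of secreted IgA and IgM, at 212, 322, 360.5, 83.1 and 170.1 CPM in FM1 to FM5 and at 72.8, 63.1, 127, 103 and 68.2 CPM in FC1 to FC5. It rose by 1.64 ± 0.19 (adjusted p = 0.000978; with FM4 1.4 ± 0.34, adjusted p = 0.0375) without FM4, and the level in FM4 lay inside the control range. *Cd3d* of T cells, at 0.967 to 3.05 CPM in the other mutants and 0.237 to 1.11 CPM in controls, rose by 1.81 ± 0.28 (adjusted p = 0.00325; with FM4 1.47 ± 0.70, adjusted p = 0.266), *Cd4* by 1.45 ± 0.28 (adjusted p = 0.00792; with FM4 1.13 ± 0.57, adjusted p = 0.301) and *Cd79a* of B cells by 1.32 ± 0.24 (adjusted p = 0.00589; with FM4 0.97 ± 0.67, adjusted p = 0.468) without FM4. These were the 4 of 21 called (median 1.23), and none was called with FM4 (median 0.94). FM4 had 0 counts for 9 of the 21, and no other female had 0 counts for any.

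Of 15 complement genes, 12 were higher without FM4 and 2 with it. *Cfi*, the protease that cuts C3b, stood at 84.7, 65.6, 76.0, 43.1 and 45.0 CPM in FM1 to FM5 and at 14.3, 13.8, 13.6, 18.3 and 16.4 CPM in FC1 to FC5. The mutants were clear of the controls, by 2.13 ± 0.16 (SE, adjusted p = 0.00033) without FM4 and 2.01 ± 0.19 (adjusted p = 0.00205) with it, and the log2 difference was 2.55, 1.98 and 1.45 in litters A, B and C, and 2.22 in B without FM4. *C2*, which is cut to form the C3 convertase, stood at 109, 97.3, 112, 116 and 121 CPM in FM1 to FM5 and at 63.2, 72.9, 62.0, 65.7 and 73.7 CPM in FC1 to FC5, a rise of 0.69 ± 0.09 (SE, adjusted p = 0.00157) without FM4 and 0.72 ± 0.09 (adjusted p = 0.00426) with it. The protease *C1ra* rose by 0.92 ± 0.11 (adjusted p = 0.00131; with FM4 0.75 ± 0.21, adjusted p = 0.068) and the anaphylatoxin receptor *C5ar1* by 2.59 ± 0.33 (adjusted p = 0.00147; with FM4 2.36 ± 0.41, adjusted p = 0.013) without FM4, none of the 15 was called lower (median 0.96), and *Cfi* and *C2* were the 2 called with FM4 (median 0.78). Of the interferon response 4 of 22 were higher without FM4 (median 0.67) and 1 with it (median 0.52). These were *Gbp2* by 1.23 ± 0.15 (adjusted p = 0.0013; with FM4 1.05 ± 0.24, adjusted p = 0.0339), *Ifit2* by 0.70 ± 0.09 (adjusted p = 0.00147), the immunoproteasome subunit *Psmb8* by 1.05 ± 0.16 (adjusted p = 0.00287; with FM4 0.88 ± 0.23, adjusted p = 0.055) and *Mx1* by 1.14 ± 0.19 (adjusted p = 0.00421; with FM4 0.91 ± 0.36, adjusted p = 0.176), and *Ifit2* was also called with FM4, by 0.64 ± 0.10 (adjusted p = 0.00863), although its groups overlapped. Mouse by mouse, the median over the interferon list was 1.47, 0.40, 0.63, -0.19 and -0.10 in FM1 to FM5, and FC1, of the same litter as FM1, was the highest control at 0.57.

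Of 37 genes of the interstitial matrix, 21 were higher without FM4 and 4 with it. *Lox*, the enzyme that crosslinks collagen and elastin, stood at 34.8, 33.5, 50.3, 15.5 and 21.4 CPM in FM1 to FM5 and at 7.73, 5.52, 8.29, 8.13 and 6.41 CPM in FC1 to FC5. Mutants and controls were apart, by 2.28 ± 0.19 (SE, adjusted p = 0.000344) without FM4 and 2.1 ± 0.28 (adjusted p = 0.00527) with it. *Timp1*, an inhibitor of matrix metalloproteinases, stood at 26.3, 16.2, 21.9, 2.42 and 3.08 CPM in FM1 to FM5 and at 0.138, 0.171, 0.186, 0.434 and 0.474 CPM in FC1 to FC5, a rise of 5.83 ± 0.48 (SE, adjusted p = 0.000344) without FM4 and 5.47 ± 0.74 (adjusted p = 0.0062) with it, with FM4 and FM5 far below the other mutants. *Ltbp2*, a protein of microfibrils, stood at 15.2, 11.7, 24.3, 2.42 and 3.75 CPM in FM1 to FM5 and at 0.345, 0.114, 0.309, 0.497 and 0.237 CPM in FC1 to FC5, a rise of 5.54 ± 0.39 (SE, adjusted p = 0.00033) without FM4 and 5.21 ± 0.65 (adjusted p = 0.00426) with it. *Fbn2*, a fibrillin best known from development, rose by 5.33 ± 0.46 (adjusted p = 0.000344) and 5.12 ± 0.52 (adjusted p = 0.00214) in the fits without and with FM4, and the metalloproteinase *Mmp3* by 4.55 ± 0.49 (adjusted p = 0.000763) and 4.42 ± 0.51 (adjusted p = 0.00322). *Ctgf*, a matricellular protein induced by YAP and TGF-beta, was high in all mice and rose by 0.88 ± 0.10 (adjusted p = 0.000872) and 0.79 ± 0.12 (adjusted p = 0.00775). The 21 included *Col1a1*, *Col3a1* and *Fn1*, and none of the 37 was called lower (median 1.23). With FM4 the 4 were *Lox*, *Ltbp2*, *Timp1* and *Ctgf* (median 1.03). *Wisp2*, a matricellular protein, had 65, 32, 90, 0 and 4 counts in FM1 to FM5 and at most 3 in a control (adjusted p = 0.00212 without FM4 and 0.0411 with it).

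Of 24 basement membrane genes 4 were higher without FM4 (16.7%, beside 4.82% of all genes tested) and 1 with it. By mouse, the list median was 0.15, 0.35, 1.21, 0.20 and 0.16 in FM1 to FM5. FM3 was the highest, and FM1, FM4 and FM5 lay inside the control range of -0.30 to 0.23. *Fras1*, which anchors the embryonic epithelial basement membrane, stood at 66.6, 81.1, 100.1, 72.4 and 74.3 CPM in FM1 to FM5 and at 49.3, 35.3, 43.4, 46.7 and 37.1 CPM in FC1 to FC5, a rise of 0.94 ± 0.14 (SE, adjusted p = 0.00278) without FM4 and 0.90 ± 0.14 (adjusted p = 0.00818) with it. Without FM4, *Agrn* rose by 0.88 ± 0.16 (adjusted p = 0.0062; with FM4 0.78 ± 0.18, adjusted p = 0.0325) and *Nid1* by 0.83 ± 0.15 (adjusted p = 0.0062; with FM4 0.68 ± 0.20, adjusted p = 0.0829), and these with *Fras1* were among the 4 called (median 0.50), while with FM4 *Fras1* was the 1 called (median 0.40). Of 16 markers of fibroblasts, pericytes and myofibroblasts 4 rose without FM4 (median 0.37) and none with it (median 0.24). *Acta2*, the actin of smooth muscle and myofibroblasts, stood at 69.4, 72.3, 131, 37.8 and 36.1 CPM in FM1 to FM5 and at 23.1, 27.1, 29.4, 42.8 and 29.7 CPM in FC1 to FC5, and rose by 1.33 ± 0.25 (adjusted p = 0.00763; with FM4 1.15 ± 0.31, adjusted p = 0.0556) without FM4, with FM4 and FM5 within the control range. *Tagln* rose by 1.43 ± 0.24 (adjusted p = 0.00418; with FM4 1.23 ± 0.33, adjusted p = 0.0585), *Vim* by 1.27 ± 0.21 (adjusted p = 0.00384; with FM4 1.1 ± 0.27, adjusted p = 0.0406) and *Thy1* by 2.06 ± 0.20 (adjusted p = 0.000586; with FM4 1.83 ± 0.34, adjusted p = 0.0174). No integrin among 16 was called in either fit (median 0.49 without FM4 and 0.39 with it), and the most abundant, *Itgb1*, had a log2 fold change of 0.44 ± 0.10 (adjusted p = 0.0173; with FM4 0.36 ± 0.13, adjusted p = 0.125).

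Of 23 EGF and TGF-beta family genes 6 were higher and 1, *Egf*, lower without FM4, and none was called with it. *Egf*, made in the thick ascending limb and distal convoluted tubule, stood at 1291, 870.2, 747, 1724 and 1417 CPM in FM1 to FM5 and at 2642, 2955, 2653, 2658 and 2823 CPM in FC1 to FC5. All 5 mutants lay below all 5 controls, and it fell without FM4 (-1.42 ± 0.17, adjusted p = 0.00122; with FM4 -1.19 ± 0.22, adjusted p = 0.015) on the log2 scale. *Inhba*, the subunit of activin A, stood at 3.53, 3.24, 5.33, 1.17 and 1.03 CPM in FM1 to FM5 and at 0.414, 0.455, 0.557, 0.559 and 0.237 CPM in FC1 to FC5, above the controls in all mutants, and rose by 2.91 ± 0.29 (adjusted p = 0.000668; with FM4 2.64 ± 0.45, adjusted p = 0.012) without FM4. *Inhbb* rose by 1.91 ± 0.27 (adjusted p = 0.00222; with FM4 1.67 ± 0.39, adjusted p = 0.0344) and the follistatin-like protein *Fstl1* by 1.31 ± 0.15 (adjusted p = 0.000996; with FM4 1.18 ± 0.19, adjusted p = 0.0101) without FM4. The median of the 23 was 0.36 without FM4 and 0.22 with it.

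The lists of retinoid handling and of prostaglandin synthesis and receptors held 5 genes called in both fits, 4 higher and 1 lower. *Aldh1a1*, an enzyme that makes retinoic acid from retinal, stood at 45.3, 72.4, 63.1, 73.6 and 78.1 CPM in FM1 to FM5 and at 17.6, 16.7, 14.5, 18.8 and 24.4 CPM in FC1 to FC5. The lowest mutant was well above the highest control, and the log2 fold change was 1.8 ± 0.13 (SE, adjusted p = 0.00033) without FM4 and 1.85 ± 0.13 (adjusted p = 0.000249) with it. *Stra6*, the receptor that takes up retinol from its binding protein, stood at 17.7, 15.6, 29.7, 32.0 and 21.0 CPM in FM1 to FM5 and at 3.86, 5.24, 3.59, 4.84 and 7.35 CPM in FC1 to FC5, with FM4 the highest, and rose by 2.11 ± 0.22 (SE, adjusted p = 0.000719) without FM4 and 2.24 ± 0.24 (adjusted p = 0.00214) with it. *Aldh1a7* rose by 1.47 ± 0.15 (adjusted p = 0.000668) and 1.55 ± 0.16 (adjusted p = 0.00214) in the fits without and with FM4, and reads from it and its near copy *Aldh1a1* could be split by the counting. *Aldh1a2* rose by 1.93 ± 0.27 (adjusted p = 0.00206; with FM4 1.71 ± 0.39, adjusted p = 0.031) without FM4, at 49.2, 59.2, 74.6, 14.9 and 18.2 CPM in FM1 to FM5 and at 12.1, 8.71, 15.8, 15.1 and 11.5 CPM in FC1 to FC5, where FM4 and FM5 stood near the controls. On the retinoid list 4 of 19 were higher without FM4 (median 0.23) and 3 of 20 with it (median 0.30). *Ptgds*, which makes prostaglandin D2, stood at 44.4, 55.4, 88.1, 50.7 and 45.0 CPM in FM1 to FM5 and at 6.21, 5.46, 6.0, 9.19 and 11.9 CPM in FC1 to FC5. Mutants were clear of controls in each litter, by 2.81, 3.2 and 1.91 in A, B and C on the log2 scale and 3.36 in B without FM4, with a fitted change of 2.94 ± 0.26 (SE, adjusted p = 0.000401) without FM4 and 2.89 ± 0.25 (adjusted p = 0.00115) with it. The other synthase of prostaglandin D2, *Hpgds* of immune cells, rose by 1.56 ± 0.26 (adjusted p = 0.00443; with FM4 1.3 ± 0.40, adjusted p = 0.0873) and the receptor *Ptger4* by 0.83 ± 0.16 (adjusted p = 0.0087; with FM4 0.61 ± 0.30, adjusted p = 0.279) without FM4. The level of *Ptger4* in FM5 lay inside the control range. The receptor for prostaglandin F2α, *Ptgfr*, was lower in every mutant, at 41.1, 38.9, 33.8, 40.4 and 36.9 CPM in FM1 to FM5 and at 67.5, 71.2, 64.6, 62.6 and 56.1 CPM in FC1 to FC5, with a log2 fold change of -0.77 ± 0.10 (SE, adjusted p = 0.00144) without FM4 and -0.75 ± 0.09 (adjusted p = 0.00426) with it. Of the 19 prostaglandin genes 3 were higher and 1 lower without FM4 (median 0.06), and with it *Ptgds* was higher and *Ptgfr* lower (median -0.07).

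Of 24 genes of the thick ascending limb and distal tubule, 11 were lower without FM4 and 3 with it. *Slc12a3*, the thiazide-sensitive sodium chloride cotransporter of the distal convoluted tubule, stood at 532, 388, 472, 681 and 625 CPM in FM1 to FM5 and at 1315, 1387, 1316, 1043 and 1067 CPM in FC1 to FC5. Every mutant was below every control, with a log2 fold change of -1.31 ± 0.17 (SE, adjusted p = 0.00135) without FM4 and -1.19 ± 0.17 (adjusted p = 0.0074) with it. The log2 difference was -1.31, -1.31 and -0.77 within litters A, B and C, and -1.53 in B without FM4. *Tmem52b* stood at 306, 229.6, 228, 343 and 277 CPM in FM1 to FM5 and at 507, 576, 529.6, 469 and 473 CPM in FC1 to FC5, with a log2 fold change of -0.99 ± 0.12 (SE, adjusted p = 0.00131) without FM4 and -0.89 ± 0.14 (adjusted p = 0.00874) with it, and the groups were again apart. Without FM4, *Klhl3*, which controls the kinases upstream of *Slc12a3*, was lower (-1.5 ± 0.30, adjusted p = 0.0097; with FM4 -1.31 ± 0.30, adjusted p = 0.0305), the calcium-binding protein *Pvalb* (-1.48 ± 0.24, adjusted p = 0.00406; with FM4 -1.29 ± 0.25, adjusted p = 0.0195) and the magnesium transporter gene *Cnnm2* (-0.64 ± 0.08, adjusted p = 0.00164; with FM4 -0.53 ± 0.12, adjusted p = 0.0274). None of the 24 was called higher, and the median was -0.74 without FM4 and -0.67 with it. Mouse by mouse, the list median was -0.55, -0.72, -0.99, -0.51 and -0.62 in FM1 to FM5, and all 5 lay below the 5 controls.

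The collecting duct lists held a few falls. Of 17 intercalated cell genes 3 were lower without FM4 (median -0.62) and none with it (median -0.51). The ammonia transporter *Rhbg* stood at 46.6, 39.7, 31.6, 49.7 and 50.7 CPM in FM1 to FM5 and at 72.9, 74.1, 61.5, 94.2 and 94.2 CPM in FC1 to FC5. It fell without FM4 (-0.95 ± 0.14, adjusted p = 0.00299; with FM4 -0.86 ± 0.15, adjusted p = 0.0121), the anion exchanger *Slc4a1* (-1.28 ± 0.22, adjusted p = 0.00492; with FM4 -1.02 ± 0.27, adjusted p = 0.0544) and the proton pump subunit *Atp6v0d2* (-0.62 ± 0.11, adjusted p = 0.00586; with FM4 -0.51 ± 0.13, adjusted p = 0.0522). Of 14 principal cell genes only *Kcnj10*, a basolateral potassium channel, was called (-0.88 ± 0.12, adjusted p = 0.00189; with FM4 -0.70 ± 0.17, adjusted p = 0.0396) without FM4 (median -0.20), and none was called with it (median -0.19). FM4 stood apart for it, at 132 CPM against 74.9 to 76.1 CPM in the other mutants. Among claudins and keratins, *Cldn1* was higher by 1.02 ± 0.15 (adjusted p = 0.00232; with FM4 0.93 ± 0.17, adjusted p = 0.0141), *Cldn8* was lower (-0.58 ± 0.10, adjusted p = 0.00537; with FM4 -0.58 ± 0.10, adjusted p = 0.0119) and *Krt20*, a keratin also on the tubule injury list, was higher by 4.9 ± 0.71 (adjusted p = 0.00235; with FM4 4.5 ± 0.94, adjusted p = 0.0237) without FM4, the 3 of 23 that were called (8.7% higher and 4.35% lower, beside 4.82% and 1.17% of all genes tested, median 0.45), and none was called with FM4 (median 0.33). *Krt20* had 265, 158, 276, 12 and 41 counts in FM1 to FM5 and 1, 2, 24, 0 and 2 in FC1 to FC5. Of 23 chloride secretion and cAMP genes, the vasopressin receptor *Avpr1a* fell (-0.82 ± 0.13, adjusted p = 0.00321; with FM4 -0.78 ± 0.13, adjusted p = 0.0119) and the phosphodiesterase *Pde1a* (-0.42 ± 0.08, adjusted p = 0.00981; with FM4 -0.25 ± 0.15, adjusted p = 0.371) without FM4 (median -0.06), and none was called with it (median -0.07).

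Of 34 proximal tubule genes 3 were lower (8.82%) and 1 higher (2.94%) without FM4, beside 1.17% and 4.82% of all genes tested, and none was called with it. *Dpep1*, a dipeptidase of the brush border, stood at 93.2, 74.1, 53.4, 99.0 and 95.8 CPM in FM1 to FM5 and at 177, 187, 153, 138 and 158 CPM in FC1 to FC5. The groups were apart, and it fell (-1.09 ± 0.16, adjusted p = 0.0023; with FM4 -0.98 ± 0.16, adjusted p = 0.0113) without FM4. *Miox*, the oxygenase that breaks down inositol, fell (-0.89 ± 0.17, adjusted p = 0.00853; with FM4 -0.78 ± 0.18, adjusted p = 0.032) and the dicarboxylate transporter *Slc13a3* (-0.88 ± 0.16, adjusted p = 0.00555; with FM4 -0.70 ± 0.19, adjusted p = 0.0556). The sulfate transporter *Slc13a1* went the other way, at 598, 632, 648, 653 and 494 CPM in FM1 to FM5 and at 431, 429, 381, 415 and 386 CPM in FC1 to FC5, and rose by 0.55 ± 0.09 (adjusted p = 0.00515; with FM4 0.56 ± 0.10, adjusted p = 0.0129). These were the 4 called, and the median of the 34 was -0.35 without FM4 and -0.18 with it. By mouse, the median of the 34 was -0.44, -0.38, -0.49, 0.25 and 0.02 in FM1 to FM5. The controls ran from -0.11 to 0.09, with FM4 above them and FM5 among them. Fatty acid oxidation had 5 of 44 genes lower without FM4 and none higher (median -0.41), and none called with FM4 (median -0.34). Its median by mouse was -0.37, -0.37, -0.71, -0.12 and -0.02 in FM1 to FM5. FM4 and FM5 lay inside the control range, which ran from -0.16 in FC3 to 0.27 in FC5. The scavenger receptor *Cd36* stood at 155, 158, 157, 133 and 140.1 CPM in FM1 to FM5 and at 279, 205, 225, 243 and 199 CPM in FC1 to FC5 and fell (-0.58 ± 0.10, adjusted p = 0.00479; with FM4 -0.62 ± 0.10, adjusted p = 0.0103), the electron transfer enzyme *Etfdh* (-0.50 ± 0.09, adjusted p = 0.00453; with FM4 -0.45 ± 0.10, adjusted p = 0.0258), *Crat* (-0.47 ± 0.09, adjusted p = 0.00764; with FM4 -0.35 ± 0.13, adjusted p = 0.146) and *Acads* (-0.49 ± 0.10, adjusted p = 0.00948; with FM4 -0.36 ± 0.13, adjusted p = 0.138). No gene of 24 in the TCA cycle and respiratory chain list was called in either fit (median -0.35 without FM4 and -0.28 with it), and *Atp5b* and *Atp5a1*, the most abundant, had -0.39 ± 0.12 (adjusted p = 0.0569; with FM4 -0.31 ± 0.14, adjusted p = 0.251) and -0.41 ± 0.12 (adjusted p = 0.0439; with FM4 -0.34 ± 0.13, adjusted p = 0.166). In this list the median was -0.34 in FM2 and -0.78 in FM3. FM1, FM4 and FM5, at -0.16, -0.14 and -0.04, lay inside the control range, from -0.23 in FC3 to 0.31 in FC5. Of 20 glycolysis and gluconeogenesis genes 1 was higher (5%) and 3 lower (15%) without FM4, beside 4.82% and 1.17% of all genes tested. The lactate exporter *Slc16a3* rose by 1.6 ± 0.28 (adjusted p = 0.00537; with FM4 1.53 ± 0.30, adjusted p = 0.0195), and *G6pc* fell (-0.69 ± 0.11, adjusted p = 0.00325; with FM4 -0.58 ± 0.13, adjusted p = 0.0335), *Fbp1* (-0.54 ± 0.11, adjusted p = 0.00979; with FM4 -0.39 ± 0.15, adjusted p = 0.17) and *Pfkm* (-0.60 ± 0.11, adjusted p = 0.00718; with FM4 -0.48 ± 0.14, adjusted p = 0.0734) without FM4 (median -0.18), and none was called with it (median -0.14).

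Glomerular and vessel lists held 1 call. *Podxl*, the sialoprotein of podocyte foot processes, was lower in every mutant, at 183, 184, 214, 228 and 245 CPM in FM1 to FM5 and at 338, 368, 339, 324 and 286 CPM in FC1 to FC5, and fell (-0.68 ± 0.13, adjusted p = 0.00725; with FM4 -0.65 ± 0.12, adjusted p = 0.0141) without FM4 as the only call among 12 podocyte genes (median -0.24), and none was called with it (median -0.22). None of 21 endothelial genes was called in either fit (median -0.08 without FM4 and -0.05 with it). *Vegfa*, which epithelia make, had -0.55 ± 0.20 (adjusted p = 0.0982; with FM4 -0.43 ± 0.20, adjusted p = 0.246) and the endothelial gene *Plvap* 0.08 ± 0.11 (adjusted p = 0.711; with FM4 0.01 ± 0.12, adjusted p = 0.973). *Alas2*, the erythroid form of the first enzyme of heme synthesis, had the largest fall of the 10-female fit among called genes with at least 1 CPM and no overlap. It stood at 3.8, 2.09, 3.28, 2.42 and 4.59 CPM in FM1 to FM5 and at 14.8, 20.8, 16.9, 9.19 and 8.7 CPM in FC1 to FC5, with a log2 fold change of -2.02 ± 0.34 (SE, adjusted p = 0.00456) without FM4 and -2.12 ± 0.31 (adjusted p = 0.00775) with it, and was the only call among 15 heme and iron genes (median -0.28 without FM4 and -0.19 with it). The globin genes *Hba-a1*, *Hba-a2*, *Hbb-bs* and *Hbb-bt* were listed at 0 in all 10 females, and since the sources used here do not say whether they were removed or lost in counting, these zeros do not show that blood RNA was absent. The 2 red blood cell genes that were tested, *Tspan33* and *Epb4.2*, were not called (values below). No antioxidant gene was called of 19 tested without FM4 (median -0.21) or of 20 with it (median -0.20), with *Gpx3* at -0.54 ± 0.16 (adjusted p = 0.0508; with FM4 -0.43 ± 0.19, adjusted p = 0.224) and *Cat* at -0.16 ± 0.13 (adjusted p = 0.506; with FM4 -0.08 ± 0.14, adjusted p = 0.832), and no steroid, prolactin or growth hormone receptor among 9 (median -0.18 without FM4 and -0.15 with it), with *Prlr* at -0.78 ± 0.19 (adjusted p = 0.0243; with FM4 -0.69 ± 0.19, adjusted p = 0.059) and *Ghr* at -0.56 ± 0.14 (adjusted p = 0.0257; with FM4 -0.46 ± 0.15, adjusted p = 0.109). Of 22 nephron lineage transcription factors *Esrrb* fell (-0.74 ± 0.13, adjusted p = 0.00589; with FM4 -0.54 ± 0.18, adjusted p = 0.114) without FM4 (median -0.24), and none was called with it (median -0.20).

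Further genes ranked among the largest rises and falls without belonging to these groups. *Serpina10*, a serpin that inhibits clotting factor Xa, stood at 54.8, 38.9, 61.4, 7.17 and 7.55 CPM in FM1 to FM5 and at 2.69, 1.54, 1.55, 2.61 and 2.21 CPM in FC1 to FC5, a rise of 4.13 ± 0.40 (SE, adjusted p = 0.000586) without FM4 and 3.85 ± 0.58 (adjusted p = 0.00783) with it. *Medag* rose by 3.86 ± 0.33 (adjusted p = 0.000344) and 3.62 ± 0.47 (adjusted p = 0.00527) without and with FM4, *Clca3a2* of the CLCA family by 3.04 ± 0.38 (adjusted p = 0.00131) and 2.96 ± 0.37 (adjusted p = 0.00426), and the glycosyltransferase *B4galnt2* by 2.73 ± 0.29 (adjusted p = 0.000719) and 2.62 ± 0.34 (adjusted p = 0.00527). *Lect1* (chondromodulin) and *Spaca7* were at the edge of detection in controls, with 1, 0, 1, 0 and 2 and 0, 0, 1, 1 and 0 counts in FC1 to FC5. They had 65, 56, 179, 0 and 34 and 78, 59, 122, 0 and 4 counts in FM1 to FM5, with adjusted p of 0.000744 and 0.00033 without FM4 and 0.0215 and 0.0182 with it. *Mogat2*, an acyltransferase of triglyceride synthesis, stood at 6.53, 2.92, 2.28, 3.32 and 5.5 CPM in FM1 to FM5 and at 12.8, 13.7, 10.6, 11.1 and 18.5 CPM in FC1 to FC5. It was lower in every mutant, FM4 included, with a log2 fold change of -1.77 ± 0.22 (SE, adjusted p = 0.00131) without FM4 and -1.77 ± 0.21 (adjusted p = 0.00352) with it. *Cwh43*, which remodels lipid anchors of membrane proteins, fell (-1.44 ± 0.23, adjusted p = 0.00332 without FM4 and -1.48 ± 0.21, adjusted p = 0.00652 with it), *Capn6* (-1.33 ± 0.18, adjusted p = 0.00202 without FM4 and -1.34 ± 0.19, adjusted p = 0.00701 with it), the zinc finger factor *Sall3* (-1.18 ± 0.19, adjusted p = 0.00405 without FM4 and -1.18 ± 0.18, adjusted p = 0.00842 with it), and *Vstm2a* (-1.21 ± 0.14, adjusted p = 0.00106 without FM4 and -1.29 ± 0.16, adjusted p = 0.00374 with it). *Fam163a* fell (-1.26 ± 0.15, adjusted p = 0.00123 without FM4 and -1.21 ± 0.16, adjusted p = 0.00559 with it), *Stk32b* (-1.0 ± 0.12, adjusted p = 0.00123 without FM4 and -1.01 ± 0.12, adjusted p = 0.00322 with it), and *Lad1* (-0.95 ± 0.16, adjusted p = 0.00393 without FM4 and -1.01 ± 0.15, adjusted p = 0.0074 with it). Without FM4, falls also included *Wnt11*, a ligand of the ureteric bud tip in development (-1.82 ± 0.28, adjusted p = 0.00299; with FM4 -2.13 ± 0.53, adjusted p = 0.0425), the kinase *Mapk10* (-1.7 ± 0.27, adjusted p = 0.00337; with FM4 -1.98 ± 0.43, adjusted p = 0.0274), the organic anion transporter *Slc22a26* (-1.62 ± 0.29, adjusted p = 0.00608; with FM4 -1.53 ± 0.26, adjusted p = 0.0121), the proton pump *Atp4a* (-1.48 ± 0.20, adjusted p = 0.00203; with FM4 -1.23 ± 0.25, adjusted p = 0.021) and *Dusp15* (-1.42 ± 0.26, adjusted p = 0.00702; with FM4 -1.48 ± 0.25, adjusted p = 0.0117).

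**Figure D3:**
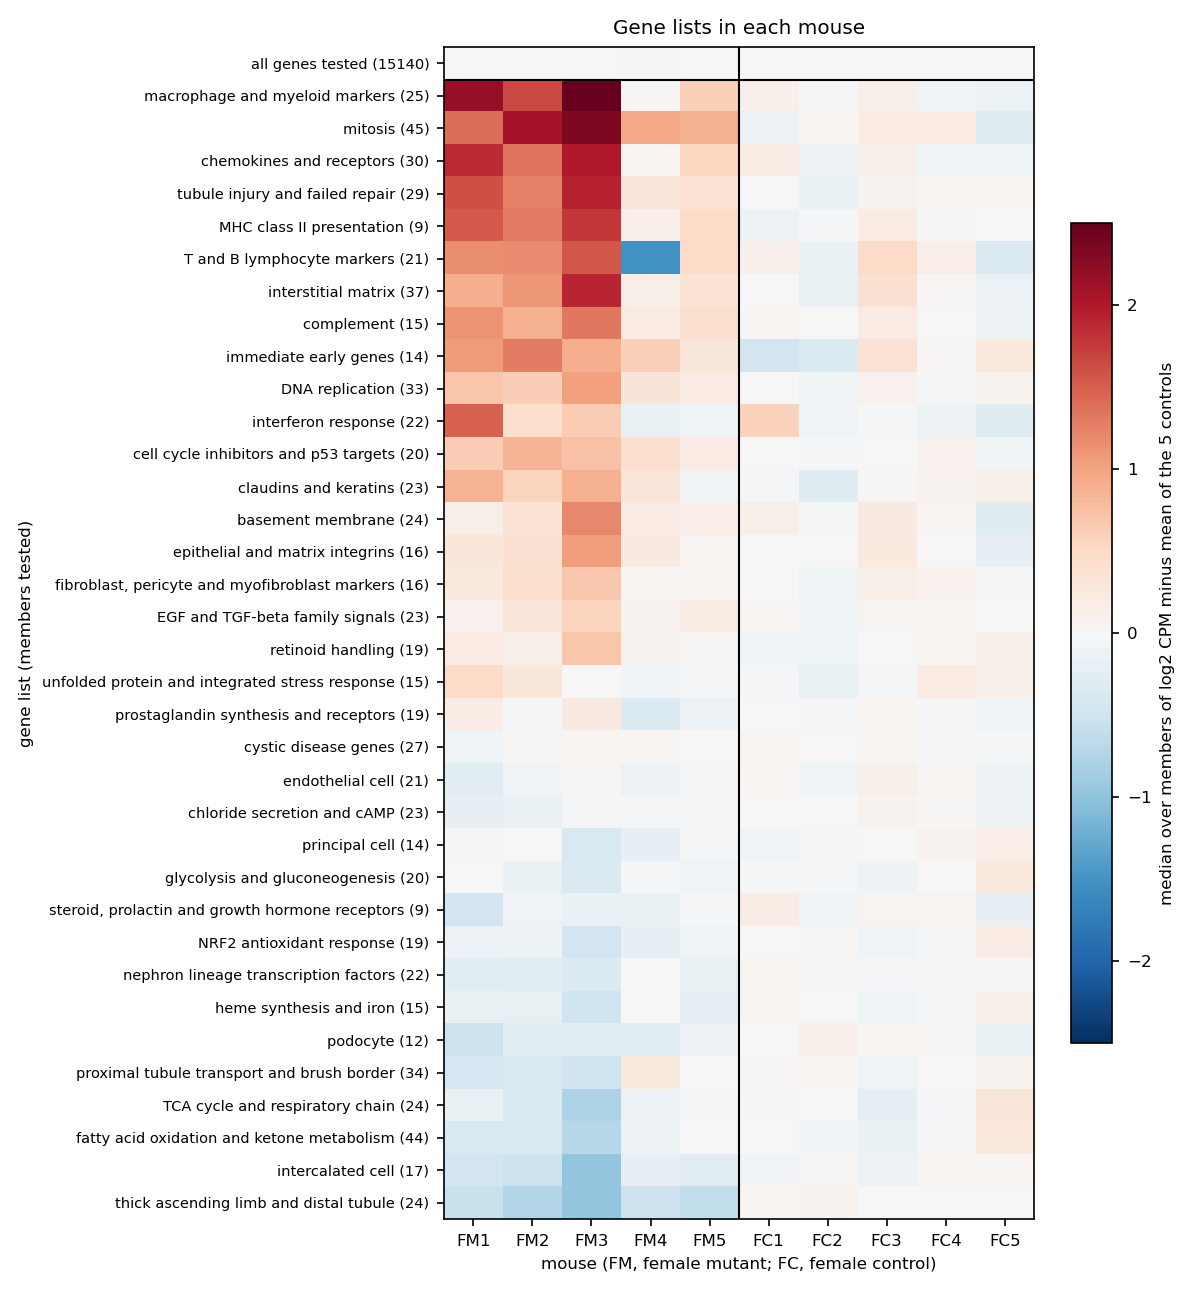
For each gene list with at least 9 members tested (top to bottom, members in parentheses) and each of the 10 females (left to right), the median over members of the log2 CPM minus the mean of the 5 controls, with all 15140 genes tested at the top. Red is above the control mean and blue below. The mitosis list is above the control mean in all 5 mutants, the list of the thick ascending limb and distal tubule below it in all 5, and the lymphocyte list in FM4 stands at -1.52.

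Tissue that can come along with a dissected kidney was looked for with lists of its markers. Adipose genes summed to 95.2, 142, 793, 88.0 and 103 CPM in FM1 to FM5 and 64.8, 62.3, 265, 86.0 and 266 CPM in FC1 to FC5, with *Fabp4* as the most abundant. FM3 was the highest, also in the median over the list (4.33 above the control mean on the log2 scale), with *Cfd*, the adipokine adipsin, at 353 CPM there and at 0.107 CPM in FM1, and FC3 and FC5 were the highest controls. Their part in other results was not tested, and none of 8 adipose genes was called in either fit (median 0.81 without FM4 and 0.50 with it). Urothelial genes summed to 89.3, 73.8, 133, 53.1 and 29.2 CPM in the mutants and 34.4, 10.1, 78.5, 42.8 and 33.4 CPM in the controls, led by *Psca*, and *Upk3b* had 1.29 ± 0.33 (adjusted p = 0.0272; with FM4 1.09 ± 0.38, adjusted p = 0.123). None of 8 was called (median 0.83 without FM4 and 0.77 with it). Liver genes summed to 363, 369.8, 495, 434 and 342 CPM in FM1 to FM5, below or among the controls at 548, 546, 515, 479 and 383 CPM, and led by *Apob*. Of these 9, *Fgg* rose by 1.18 ± 0.23 (adjusted p = 0.00803; with FM4 0.93 ± 0.36, adjusted p = 0.172) and *Serpina1a*, a member of a family of near copies, by 1.13 ± 0.20 (adjusted p = 0.00618; with FM4 0.96 ± 0.29, adjusted p = 0.0829) without FM4 (median -0.07), and none was called with it (median 0.10). Adrenal, pancreatic and skeletal muscle markers were sparse. Of 12 adrenal genes 2 were tested (median 0.53 without FM4 and 0.60 with it), and *Star*, the more abundant, had -0.14 ± 0.20 (adjusted p = 0.72; with FM4 -0.08 ± 0.20, adjusted p = 0.876). Of 10 pancreatic genes 1 was tested, *Cela1*, which kidney also expresses, with -0.39 ± 0.19 (adjusted p = 0.2; with FM4 -0.23 ± 0.20, adjusted p = 0.586). Of 7 muscle genes 3 were tested (median 0.26 and 0.09), with *Mylpf* at 0.26 ± 0.26 (adjusted p = 0.568; with FM4 0.09 ± 0.34, adjusted p = 0.926) and *Actn3* at 0.42 ± 0.32 (adjusted p = 0.437; with FM4 0.17 ± 0.61, adjusted p = 0.923). Of the red blood cell list 2 were tested (median 0.28 and 0.19), *Tspan33* at 0.02 ± 0.09 (adjusted p = 0.936; with FM4 0.08 ± 0.10, adjusted p = 0.743) and *Epb4.2* at 0.55 ± 0.37 (adjusted p = 0.372; with FM4 0.31 ± 0.49, adjusted p = 0.796). Of the 5 sex check genes *Xist* was tested, at 0.20 ± 0.26 (adjusted p = 0.691; with FM4 0.22 ± 0.24, adjusted p = 0.668). None of these was called in either fit. At most 3 counts in any of the 10 females were seen for 7 adrenal, 7 pancreatic and 3 muscle genes.

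Whether the response of the females differed from that of the males was tested with the sex-by-genotype term over all 20 mice. No gene of 14820 (0%) was called by edgeR, with 618 at an unadjusted p under 0.05, and DESeq2 called 18. Without FM4, 3 genes of 14960 (0.0201%) were called, with 1039 at an unadjusted p under 0.05. The 3 called are all named here after their values were seen. *Cyp2e1*, a cytochrome P450 of drug metabolism, stood at 195, 166, 176, 188 and 352 CPM in FM1 to FM5 and at 75.3, 64.5, 65.0, 60.1 and 163 CPM in FC1 to FC5. It rose in females by 1.35 ± 0.09 (SE, adjusted p = 0.000292) without FM4 and 1.39 ± 0.09 (adjusted p = 0.000243) with it. On the scale of the 20 mice its mean was 211 CPM in the female mutants other than FM4, 81.9 in female controls, 2034 in male mutants and 1667 in male controls, and the term, the log2 fold change in females minus that in males, was 1.03 ± 0.14 (adjusted p = 0.00699). *Ugt2b37*, a glucuronosyltransferase from a family of near copies among which reads can be split, rose in females by 4.41 ± 0.56 (adjusted p = 0.00135; with FM4 4.07 ± 0.80, adjusted p = 0.0197) without FM4, which had 2.06 CPM, while its mean in males was lower in mutants. In the same order its means were 24.4, 1.1, 64.8 and 115 CPM, with a term of 5.27 ± 0.54 (adjusted p = 0.000489). The first of these means covers 27.6, 15.8, 50.4 and 3.64 CPM in FM1, FM2, FM3 and FM5. *Cyp7b1*, an oxysterol hydroxylase, was near level in females and lower in male mutants than in male controls, with means of 4.46, 4.01, 104 and 299 CPM and a term of 1.71 ± 0.19 (adjusted p = 0.000798). In the females *Cyp7b1* was not called in either fit, and FM4 had 0.0897 CPM. With FM4 kept in, the adjusted p of the term was 0.0135 for *Cyp2e1*, 0.0593 for *Ugt2b37* and 0.859 for *Cyp7b1*. Leaving out FM5 or FC5 in place of FM4 gave 2 calls each, and leaving out MM2, a male mutant, gave 1. FM5 and FC5 are the only females of litter C, so either step takes both out of the comparison. Counts of genes called in one sex were not compared with those in the other, since an effect past the threshold in females and not in males is no test of a difference.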

How the data were processed

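RNA from 1 snap-frozen kidney sample per mouse was sequenced (NovaSeq), 1 library each, and the deposited table holds the authors' raw counts per gene symbol for 20 mice, with 0 sample columns unused. Trimming was by fastp 0.23.2 and alignment to mm10 by STAR 2.7.10b, both by the authors. The counting step, its annotation and strand are not given in the sources used here. Counts of the 10 females were fitted in R 4.3.3 with edgeR 4.0.16 (TMM library sizes, filterByExpr on the design, quasi-likelihood test, litter as covariate), with Benjamini-Hochberg adjustment over all genes tested and calls at an adjusted p under 0.01, and the fit was repeated without FM4. The procedure was tested on simulated data. CPM use TMM library sizes. Library pairs within a group differed beyond sampling noise, with a lowest chi-square per gene of 8.95. Floors of 3 counts cover counting error only.

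Named genes are *Pkd2* and *Pkd1*; in each of the 10- and 9-female fits the 15 largest rises and 10 largest falls among called genes whose groups did not overlap and whose mean reached 1 CPM; and from each of 43 lists up to 4 called members by smallest p in the 9-female fit, or the 2 most abundant where none was called. Some genes picked this way, and one promoter comparison, are not reported here. Predicted or numbered gene models were counted and took no place. Other genes, such as list members that complete a count and those called for the sex-by-genotype term, were named after their values were seen. Members and lists were chosen with earlier results of these data known. Of 869 list symbols, 3 were not in the table. Alternatives were DESeq2 1.42.0 size factors and Wald test, limma 3.58.1 voom with sample weights, other count filters, no litter term, litter B alone, all 20 mice in 1 fit, an adjusted p under 0.05, and each mouse left out.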

Additional observations from a re-analysis of the deposited data

Results flagged for a closer look

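In groups of 5 mice, a value was marked when its gap to the nearest of the others was over 0.71 of the range of the group, and chance marks about 1 group in 20. Of 317 groups checked 20 were marked, 8 among mutants and 12 among controls, with FM4 and FC5 at 5 marks each and FC3 at 4. Among mutants, FM1 had a body weight of 25.13 g, and FM4 had 14850 genes detected and 76 genes with 1 count. FM4 also stood apart for *Kcnj10* at 132 CPM, *Pde1a* at 135 CPM and *Serpina1a* at 2.69 CPM, and FM3 for *Ptgds* at 88.1 CPM and *Cfd* at 353 CPM. Among controls, FC3 stood apart for *Cxcl5* at 0.0619 CPM, *Il1rn* at 0.371 CPM, *Krt20* at 1.48 CPM and *Cd4* at 2.91 CPM. *Cxcl5* had 1 count in FC3 and 0 in every other control, a pattern that the rule always marks. The share of 1 in 20 does not hold for counts this low. FC4 did so for *H2-DMb2* at 1.06 CPM, FC1 for *Ctgf* at 62.4 CPM and FC2 for *Fgg* at 21.7 CPM. FC5 did so for *Capn6* at 5.93 CPM, *G6pc* at 697 CPM, *Fbp1* at 1255 CPM, *Itgav* at 214 CPM and *Xist* at 481 CPM.

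In the 19 mice without FM4, the sex-by-genotype term was called for *Ugt2b37* (adjusted p = 0.000489), *Cyp7b1* (adjusted p = 0.000798) and *Cyp2e1* (adjusted p = 0.00699). In all 20 mice no gene was called by edgeR, and the adjusted p of the term was 0.0593, 0.859 and 0.0135 for these 3.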

How the results depend on the processing

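Against 93 genes called in the 10 females, the count was 172 with no litter term, 955 with the DESeq2 Wald test, 1278 with voom sample weights (lowest for FM4, 0.242, and FM3, 0.354), 230 with no filter on low counts, 672 with all mice of both sexes in 1 fit, 2 in litter B alone and 820 at an adjusted p under 0.05. With each mouse omitted singly, it ran from 3 (without FC2) to 906 (without FM4). DESeq2 size factors gave 91 and a minimum of 10 counts in every mouse 89. Against 906 in the 9 females, the count was 1927 with DESeq2, 1695 with voom, 1727 with all mice, 304 in litter B and 2335 at an adjusted p under 0.05, with 291 (without FM1) to 1153 (without FC5) when 1 more mouse was left out. Against 0 genes for the sex-by-genotype term by edgeR, DESeq2 gave 18, a minimum of 10 counts 1, the 19 mice without FM4 3, and leaving out 1 mouse 0 to 3. *Pkd2* in the 10 females was called with DESeq2 at -0.80 (adjusted p = 0.000405), with voom at -0.85 (0.00236) and with all mice at -0.82 (0.00262), and ran from -0.93 to -0.67 with 1 mouse left out, at adjusted p from 0.00952 to 0.0865. In the 9 females it was not called with a minimum of 10 counts, at -0.89 (adjusted p = 0.0112), or in litter B alone, at -1.21 (0.0151), and ran from -1.08 to -0.74 with 1 more mouse left out, at adjusted p from 0.0093 to 0.0259. The KBW difference ran from 0.499 to 0.654 percentage points with 1 mouse left out, at exact permutation p from 0.00794 to 0.0159, and the difference of medians was 0.637 (p = 0.0476). For these changes the cause was not tested. In the fits of counts with litter as a covariate, leaving out either female of litter A or C takes both out of the comparison. Among 151 named genes tested, 1 of the 43 called in the 10 females and 53 of the 128 called in the 9 were called under every alternative in which they were tested. Some named genes were not tested under some alternatives, such as the minimum of 10 counts. No called direction reversed. No paired analysis was possible because replicate numbers only follow the order of the records and the 3 mutants and 3 controls of litter B have no partners 1 to 1. Litter is instead a block in the fits of counts, as a covariate, and has no part in the permutation tests of KBW and body weight. Genes below about 5 CPM are weakly measured in FM4, and the part of depth in this was not tested.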
